A study of Homo sapiens with 6 samples.

Results

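The smooth-muscle type contractile genes are ACTA2, ACTG2, ACTC1, TAGLN, CNN1, MYL9, TPM1, TPM2, CALD1 and MYH11, 10 of the 23617 gene symbols measured in MDA-MB-231 cells. They were taken by symbol, with all their transcripts, and the group was chosen by its untreated and DAC FPKM, with earlier results of these libraries known. Those values are therefore given as a description and were not tested. The study asked which genes respond to decitabine (DAC, 5-aza-2'-deoxycytidine), a cytidine analog that traps DNA methyltransferases and lowers DNA methylation. MDA-MB-231 is a mesenchymal, basal-like line from human breast cancer. HMLER is a human mammary epithelial line transformed in the laboratory with telomerase, the SV40 early region and oncogenic RAS. Cells received 10 µM DAC for 72 h or were left untreated. The 6 libraries are 1 DAC-treated and 1 untreated library of MDA-MB-231, and 2 DAC-treated and 2 untreated libraries of HMLER. RNA of each library was a pool of several extractions, so the spread between cultures is not in these values.

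The unit is FPKM, the fragments on a transcript scaled by its length and by the mapped fragments, so levels can be set beside each other between genes. For MDA-MB-231 the FPKM of each RefSeq transcript in each library was available, with Cuffdiff's lower and upper bound beside each value. For HMLER the authors merged the 2 libraries of a condition into 1 value. Their HMLER table lists 2009 transcripts of 1854 symbols, each with a DAC/untreated ratio above 2 and a DAC value above 1 FPKM. A member missing from it was therefore not analysed in HMLER, and no level, lower value or lack of change can be read for it. The same holds for missing transcripts of a listed member, so its HMLER values cover the listed transcripts only. Summed over transcripts, a gene was called higher in MDA-MB-231 at a DAC/untreated ratio above 2, and lower at the inverse, with 1 FPKM or more in at least 1 library. No difference has a replicate check, and no p-value is given.

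Depth was read from the low values of long single-transcript genes, which lie on a ladder whose step is the value of 1 read. At an effective length of 1 kb, 1 read was worth 0.0230 FPKM in the untreated and 0.0231 FPKM in the DAC library. Cuffdiff may have rescaled the libraries before this step, so their depths cannot be compared from it, and the FPKM of all transcripts summed to 589238 untreated and 480455 after DAC. The reads given for single members were inferred from this unit and are approximate for transcripts under 2000 bases. The median ratio of the 11292 symbols that reached 1 FPKM in each library was 0.912, or -0.13 in log2 units, so a gene at a ratio of 1 lies slightly above the middle. VIM, CD44 and CAV1, which mark the mesenchymal state of this line, were at 212.3 FPKM or more in untreated MDA-MB-231, and CDH1, ESR1 and PGR were listed at 0. SPARC, another marker of that state, was low (2.09 FPKM). In HMLER the basal keratins KRT5 (9.85 to 37.1 FPKM) and KRT14 (11.6 to 52.2 FPKM) were listed.

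Smooth muscle contracts when myosin pulls on actin filaments after its regulatory light chain is phosphorylated. ACTA2, ACTG2 and ACTC1 encode muscle actins, TPM1 and TPM2 encode tropomyosins that lie along the filament, and TAGLN, CNN1 and CALD1 encode proteins that bind the filament and modulate it. MYL9 encodes the regulatory light chain and MYH11 the heavy chain of smooth-muscle myosin. Many of these genes are known targets of serum response factor (SRF), which binds the CArG box and is helped by myocardin (MYOCD) or its relatives MKL1 and MKL2. Outside smooth muscle, several of them are made by myoepithelial cells, activated fibroblasts and cells in culture.

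The sequences before the starts of 3 members that were higher in MDA-MB-231 are shown for their CpG, sites where DNA can be methylated, since DAC lowers DNA methylation. They come from RefSeq on GRCh38.p14, run 5′ to 3′ along the gene over the 250 bases before an annotated start, and have each CpG in capitals.
ACTA2, outer start, chr10:88991338-88991587, minus strand: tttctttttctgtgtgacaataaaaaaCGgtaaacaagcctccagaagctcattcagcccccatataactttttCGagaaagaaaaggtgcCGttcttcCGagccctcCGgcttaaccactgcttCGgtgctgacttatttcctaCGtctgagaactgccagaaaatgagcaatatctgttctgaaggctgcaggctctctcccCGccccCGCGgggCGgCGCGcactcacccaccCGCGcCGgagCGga
ACTA2, inner start, chr10:88952774-88953023, minus strand: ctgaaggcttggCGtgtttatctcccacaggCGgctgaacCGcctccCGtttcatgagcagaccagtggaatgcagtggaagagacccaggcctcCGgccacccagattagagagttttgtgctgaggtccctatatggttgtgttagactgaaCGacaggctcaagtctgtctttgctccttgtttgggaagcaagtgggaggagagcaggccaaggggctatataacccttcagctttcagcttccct
CNN1, chr19:11538601-11538850, plus strand: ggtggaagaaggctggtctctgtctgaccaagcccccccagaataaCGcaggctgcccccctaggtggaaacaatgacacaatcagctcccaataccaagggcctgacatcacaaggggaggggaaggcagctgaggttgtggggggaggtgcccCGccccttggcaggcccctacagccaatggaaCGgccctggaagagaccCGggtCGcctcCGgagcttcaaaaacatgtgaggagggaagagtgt
TPM2, outer start, chr9:35690057-35690306, minus strand: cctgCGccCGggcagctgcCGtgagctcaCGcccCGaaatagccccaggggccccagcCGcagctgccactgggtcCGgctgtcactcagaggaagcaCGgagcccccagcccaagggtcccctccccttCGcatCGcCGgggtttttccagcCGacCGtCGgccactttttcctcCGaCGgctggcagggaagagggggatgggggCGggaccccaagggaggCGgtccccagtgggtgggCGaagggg

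These stretches differ widely in CpG. The outer ACTA2 start has 17 CpG in its 250 bases, the inner ACTA2 start 6, CNN1 6 and the outer TPM2 start 19. The inner TPM2 start, whose sequence is not shown, has 25. Starts were found for 7 of the 10 members, ACTA2, ACTG2, ACTC1, CNN1, TPM1, TPM2 and CALD1, with 14 starts in all. Over windows from 250 bases before to 50 after each start, the CpG observed/expected ratio had a median of 0.348 in the 14 windows and 0.579 in all 35116 windows of the table. The ratio was highest at TPM1 (0.854), the outer ACTA2 start (0.824) and the TPM2 starts (0.731 and 0.612). The lowest was 0.0976, at a CALD1 start. CNN1 (0.355), ACTG2 (0.335), the inner ACTA2 start (0.265) and the other CALD1 and all ACTC1 starts (0.1203 to 0.487) lay under the median of all windows. Methylation was not analysed here, and the build of these windows differs from that of the expression tables, so they are joined by gene symbol only.

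**Figure D1:**
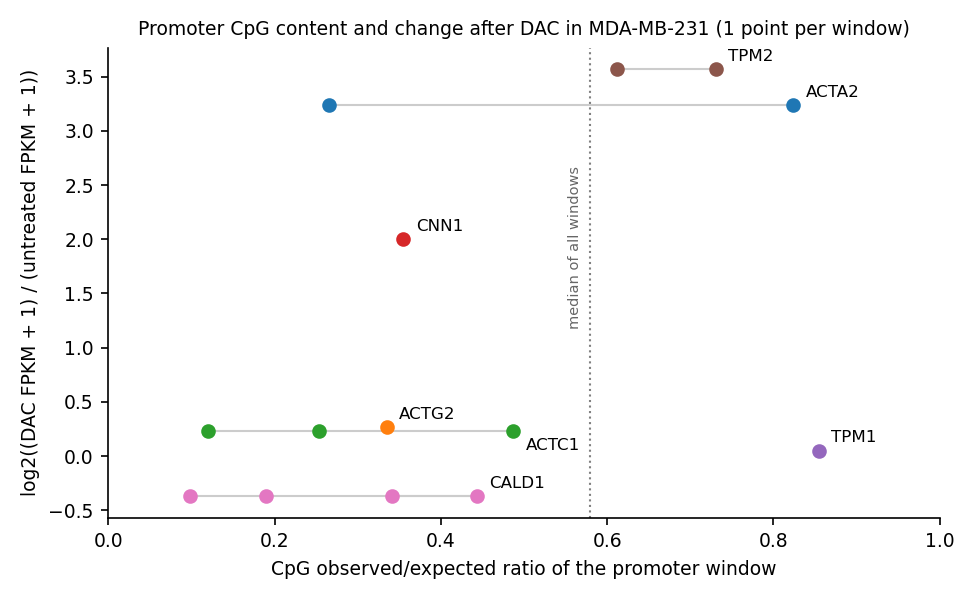
CpG observed/expected ratio of each promoter window (x axis, no unit) against the log2 change after DAC in MDA-MB-231 with 1 FPKM added (y axis), 1 point per window and lines joining windows of a gene. TPM2 lies right of the dotted median of all windows (0.579), ACTA2 has a window on each side, CNN1 lies left of it, and TPM1, with the highest ratio, has a change of 0.05.

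A CArG box, here a pair of C, 6 letters that are each A or T and a pair of G, was searched in the same windows. The motif reads the same way on both strands. It was present in 1.29% of all windows and in 2 of the 14 windows of the members, at ACTG2 (2 boxes) and ACTC1 (1 box). With G or C allowed at 1 of the 6 inner letters, 8.13% of all windows held a match, as did 4 of the 14. The inner ACTA2 start (2 matches) and a CALD1 start were added. The boxes of ACTG2 and ACTC1 and the near matches of ACTA2 are shown with their neighbouring bases, with the box in capitals, since SRF is the known regulator of these genes. Positions count back from the base before the start.
ACTG2, bases -110 to -101, chr2:73892888-73892917, plus strand: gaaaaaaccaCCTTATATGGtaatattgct
ACTG2, bases -73 to -64, chr2:73892925-73892954, plus strand: cgtcagctggCCTTTTTAGGgactttgttt
ACTC1, bases -109 to -100, chr15:34795639-34795668, minus strand: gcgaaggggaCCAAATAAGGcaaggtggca
ACTA2, inner start, bases -121 to -112, chr10:88952875-88952904, minus strand: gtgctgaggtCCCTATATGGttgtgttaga
ACTA2, inner start, bases -71 to -62, chr10:88952825-88952854, minus strand: tgtctttgctCCTTGTTTGGgaagcaagtg

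The letters alone do not show binding. ACTG2 and ACTC1, which have the exact box, were under 1 FPKM in both MDA-MB-231 libraries, as described next.

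Among the actins, ACTA2 was the member with the largest ratio in MDA-MB-231. ACTA2 (hg19 chr10:90694831-90751096, minus strand), the alpha actin of vascular smooth muscle, was at 0.705 FPKM in the untreated and 15.1 FPKM in the DAC library, a ratio of 21.4, or 9.43 on FPKM + 1. These values correspond to about 41 and 868 reads, and the 95% interval of the ratio is 15.6 to 29.9 (exact binomial, counting error only). In HMLER ACTA2 was at 17.6 FPKM untreated and 45.1 FPKM after DAC, a ratio of 2.56. Untreated HMLER cells thus already had a level near that of DAC-treated MDA-MB-231 cells, although the tables were normalized separately. In bulk RNA, more cells with ACTA2 and more ACTA2 RNA per cell cannot be told apart. In MDA-MB-231 the gene moved from percentile 6.21 to percentile 56.6 of the levels of all symbols at 1 FPKM or more.

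Both ACTA2 transcripts were higher in both lines. In MDA-MB-231 NM_001141945 was at 0.332 FPKM (bounds 0 to 1.42) untreated and 7.13 FPKM (0.140 to 14.1) after DAC, and NM_001613 at 0.373 (0 to 1.68) and 7.95 FPKM (0 to 16.5). In HMLER NM_001141945 was at 9.70 and 20.6 FPKM, and NM_001613 at 7.90 and 24.5 FPKM. The split between the transcripts was near even in MDA-MB-231 before and after DAC (47.1% and 47.3% for NM_001141945), and the bounds of the libraries overlapped for each transcript. ACTA2 shares its locus with FAS, which lies on the opposite strand and was at 2.35 FPKM untreated and 7.70 FPKM after DAC. No strand setting is given in the sources used here, so reads where the genes overlap cannot be told apart.

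The other muscle actins stayed under 1 FPKM. ACTG2 (chr2:74119441-74146992, plus strand), the enteric smooth-muscle actin, was at 0.0235 FPKM untreated and 0.230 FPKM after DAC, about 1 and 11 reads. The ratio of 9.80 has a counting interval from 1.61 to 476.0, and is 1.202 on FPKM + 1. The single untreated read was assigned to NM_001199893 and the DAC reads to NM_001615. ACTC1 (chr15:35082308-35087790, minus strand), the cardiac alpha actin, was at 0.0134 and 0.189 FPKM, about 2 and 28 reads, a ratio of 14.1 with an interval from 3.55 to 121.9, or 1.17 on FPKM + 1. Neither gene is in the HMLER table. Both had more reads in the DAC library, at levels far under the 15.1 FPKM of ACTA2 in the same library.

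Actins as a family were set by the cytoplasmic forms. ACTB was at 3376 FPKM untreated and 1469 FPKM after DAC, a ratio of 0.435, and ACTG1 at 2192 and 1593 FPKM. ACTA2 made up 0.0127% of the FPKM of all 6 actins before and 0.490% after DAC. Reads from the conserved actin coding sequence could be assigned to the wrong gene, which was not tested.

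The tropomyosins moved unequally. TPM2 (chr9:35681989-35690053, minus strand), the beta tropomyosin of muscle, was at 8.95 FPKM untreated and 117.3 FPKM after DAC in MDA-MB-231, a ratio of 13.1. This was the highest level of any member in the DAC library and the largest change on the log2 scale with 1 FPKM added (3.57). It rests on about 377 and 4963 reads, with a counting interval from 11.9 to 14.7. NM_213674 went from 7.38 FPKM (bounds 0.725 to 14.0) to 88.99 FPKM (42.0 to 136.0), and these bounds did not overlap. For NM_003289, at 1.58 FPKM (0 to 4.45) and 28.3 FPKM (3.53 to 53.0), they overlapped. TPM2 is not in the HMLER table.

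TPM1 (chr15:63334819-63364114, plus strand), the alpha tropomyosin, differed little in MDA-MB-231 when its transcripts were summed. It was at 79.5 FPKM untreated and 82.2 FPKM after DAC, a ratio of 1.03 with a counting interval from 0.999 to 1.08. In HMLER the listed transcript NM_001018006 was at 33.6 FPKM untreated and 120.2 FPKM after DAC, a ratio of 3.57. The same transcript in MDA-MB-231 was at 30.9 FPKM (bounds 8.90 to 52.9) and 62.3 FPKM (30.5 to 94.1), a ratio of 2.02 with overlapping bounds. Against it stood NM_001018020, of the same length of 1788 bases, which was also at 30.9 FPKM untreated and at 3.09 FPKM (0 to 10.2) after DAC.

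The other TPM1 transcripts were close to each other before and after DAC or low. NM_001018008 was at 16.1 and 15.4 FPKM, NM_000366 at 1.11 and 1.17 FPKM and NM_001018005 at 0.472 and 0.232 FPKM, while NM_001018004 and NM_001018007 were listed at 0 in both libraries. NM_001018006 thus made up 38.9% of TPM1 FPKM untreated and 75.8% after DAC. These transcripts share most exons, and the equal untreated values of NM_001018006 and NM_001018020 are an estimate, not separate read counts.

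Non-muscle tropomyosins were lower. TPM3 was at 146.2 FPKM untreated and 95.1 FPKM after DAC, and TPM4 at 395.9 and 223.4 FPKM, neither past the 2-fold threshold. All tropomyosin FPKM summed to 630.4 untreated and 518.0 after DAC. Within it TPM2 went from 1.42% to 22.6%, TPM1 from 12.6% to 15.9%, TPM3 from 23.2% to 18.4% and TPM4 from 62.8% to 43.1%.

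**Figure D2:**
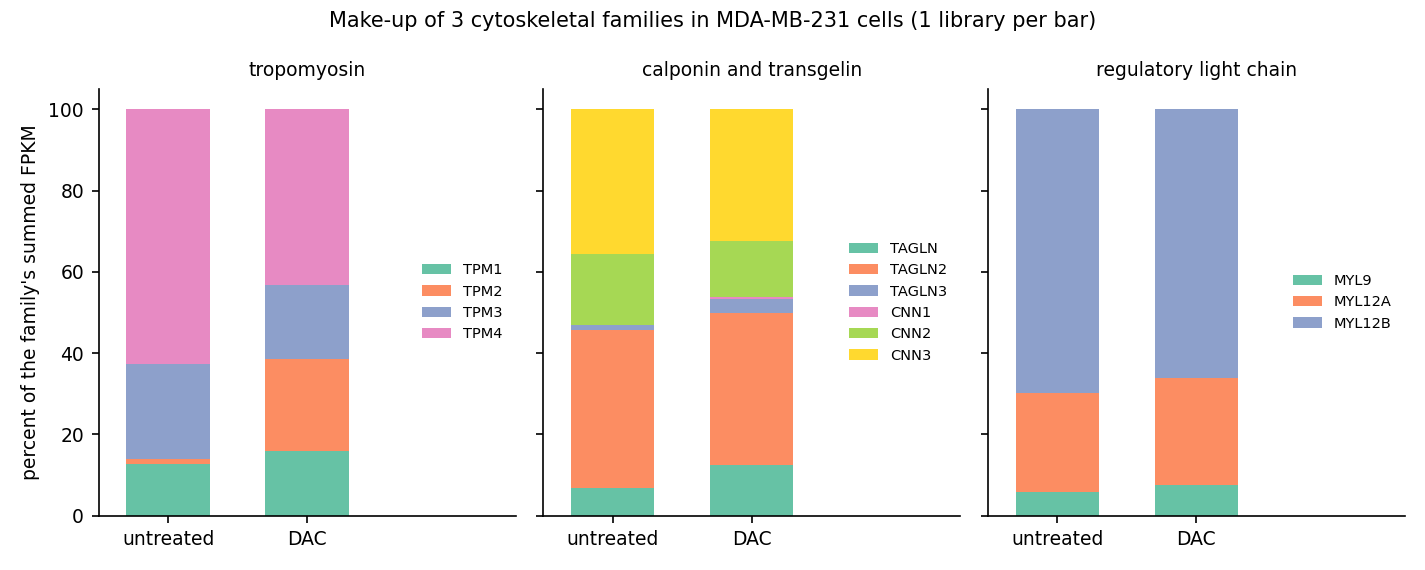
Percent of the summed FPKM of a family (y axis) taken by each gene in untreated and DAC-treated MDA-MB-231 cells, 1 library per bar, for tropomyosins, calponins with transgelins, and regulatory light chains. TPM2 went from 1.42% to 22.6% of the tropomyosins and TAGLN from 6.88% to 12.5% of its family, while MYL9 stayed between 5.75% and 7.45%.

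TAGLN (chr11:117070086-117078180, plus strand), or SM22 alpha, an early marker of smooth-muscle differentiation, lay just under the threshold in MDA-MB-231. It was at 35.1 FPKM untreated and 68.8 FPKM after DAC, a ratio of 1.96 with a counting interval from 1.83 to 2.09. Divided by the median ratio of all symbols, TAGLN passed it. Its main transcript NM_003186 was at 34.2 FPKM (bounds 14.4 to 54.0) and 67.5 FPKM (31.0 to 104.0), and NM_001001522 at 0.897 and 1.32 FPKM. In HMLER NM_003186 was at 4.84 FPKM untreated and 49.5 FPKM after DAC, a ratio of 10.2. By its listed transcript, TAGLN thus had the lower untreated value and the larger ratio in HMLER, where ACTA2 had both in MDA-MB-231.

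CNN1 (chr19:11649582-11661138, plus strand), or calponin, was nearly silent in untreated cells of both lines. In MDA-MB-231 it was at 0.187 FPKM (bounds 0 to 0.544) untreated and 3.74 FPKM (0 to 7.49) after DAC, about 11 and 218 reads, a ratio of 20.04 with a counting interval from 10.9 to 40.5. In HMLER it was at 0.0869 FPKM untreated and 1.21 FPKM after DAC, a ratio of 13.9. Its level after DAC was low in MDA-MB-231, at percentile 22.3 of the symbols at 1 FPKM or more. Computed on FPKM + 1, the ratio was 3.995 in MDA-MB-231 and 2.03 in HMLER.

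Among the paralogs of TAGLN and CNN1 that are not confined to muscle, TAGLN2, CNN2 and CNN3 were each at a higher level than either gene in both libraries. TAGLN2 was at 197.7 FPKM untreated and 206.3 FPKM after DAC, CNN2 at 89.2 and 75.6 FPKM and CNN3 at 181.3 and 178.8 FPKM. TAGLN3, a form known from neurons, was at 6.27 FPKM untreated and 18.7 FPKM after DAC in MDA-MB-231, a ratio of 2.98, and at 3.18 and 16.9 FPKM in HMLER. TAGLN3 was the only one of the 15 non-muscle paralogs called higher in MDA-MB-231 and the only one listed in HMLER.

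CALD1 (chr7:134429003-134655480, plus strand), or caldesmon, was the only member with a ratio under 1 in MDA-MB-231, and it had a listed transcript in HMLER. It was at 31.8 FPKM untreated and 24.3 FPKM after DAC in MDA-MB-231, a ratio of 0.765 with a counting interval from 0.739 to 0.798. In HMLER the listed transcript NM_004342 was at 9.55 FPKM untreated and 19.5 FPKM after DAC, a ratio of 2.04, just inside the 2-fold limit of the table. The same transcript in MDA-MB-231 was at 14.7 FPKM (bounds 4.94 to 24.6) and 9.89 FPKM (2.88 to 16.9). No other CALD1 transcript is listed in HMLER, so the direction of the whole gene there cannot be read. The difference between the lines was not tested.

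The CALD1 transcripts of MDA-MB-231 were not alike. NM_033138, the longest at 5232 bases, was at 4.24 and 3.83 FPKM, NM_033140 at 7.03 and 7.55 FPKM and NM_033157 at 2.15 and 2.71 FPKM. NM_033139 stood apart, at 3.66 FPKM (0 to 8.66) untreated and 0.365 FPKM (0 to 1.74) after DAC. Bounds overlapped for all 5 transcripts.

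MYL9 (chr20:35169900-35179850, plus strand), the smooth-muscle regulatory light chain, was high and little different in MDA-MB-231. It was at 56.6 FPKM untreated and 61.2 FPKM after DAC, a ratio of 1.08 with a counting interval from 1.04 to 1.16. In HMLER it was at 16.0 FPKM untreated and 38.0 FPKM after DAC, a ratio of 2.37. NM_006097 was at 52.5 and 61.2 FPKM in MDA-MB-231 and at 14.6 and 31.6 FPKM in HMLER. The shorter NM_181526 was at 4.11 FPKM (0 to 12.0) untreated and listed at 0 after DAC in MDA-MB-231, and at 1.42 and 6.33 FPKM in HMLER. The light chains of non-muscle cells were at 239.6 and 216.4 FPKM (MYL12A) and at 688.4 and 544.1 FPKM (MYL12B).

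MYH11 (chr16:15796992-15950885, minus strand), the heavy chain that defines mature smooth muscle, was near absent in MDA-MB-231. It was at 0.0698 FPKM untreated and 0.0916 FPKM after DAC, about 20 and 26 reads, a ratio of 1.31 with a counting interval from 0.702 to 2.47. No difference was detectable at this depth. The gene overlaps NDE1 on the opposite strand, which was at 17.4 and 13.2 FPKM, so that these few reads may belong to either. NM_002474 held 94.6% of MYH11 FPKM untreated and 96.5% after DAC. The non-muscle heavy chain MYH9 was at 308.1 FPKM untreated and 171.1 FPKM after DAC. MYH11 is not in the HMLER table.

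**Figure D3:**
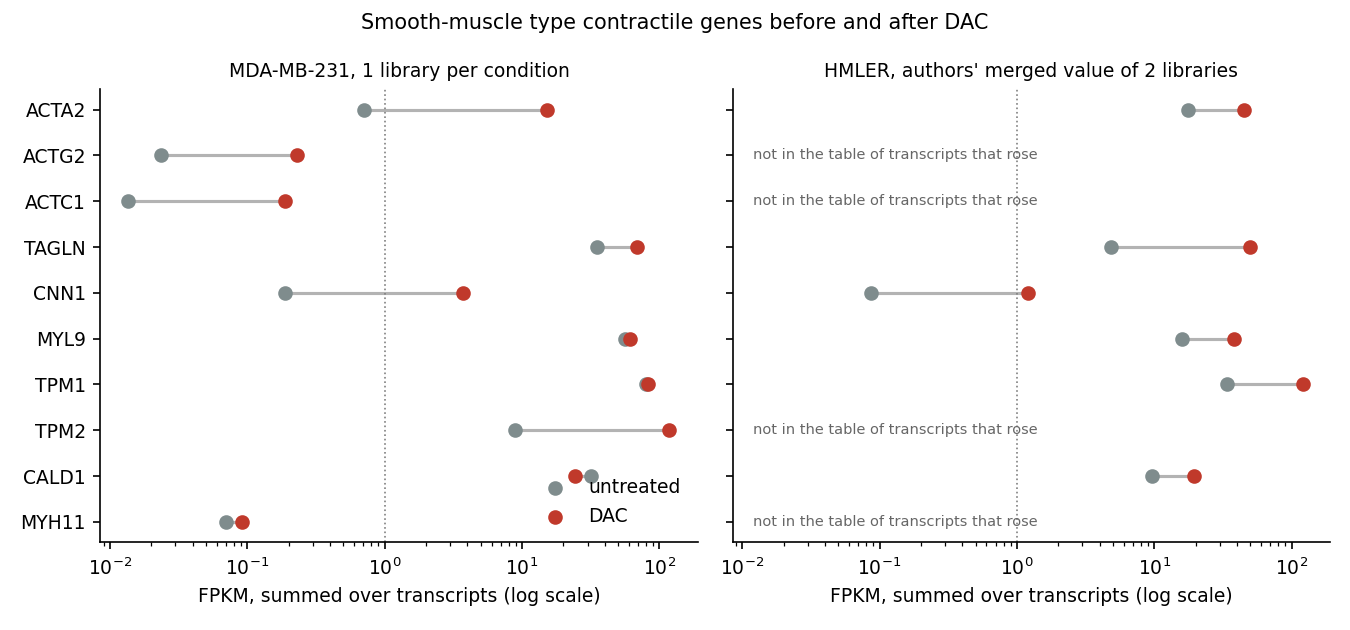
FPKM summed over transcripts (x axis, log scale) of the 10 genes in untreated (grey) and DAC-treated (red) cells of MDA-MB-231 and HMLER, with the dotted line at 1 FPKM. Among genes at 1 FPKM or more in either library, ACTA2, CNN1 and TPM2 moved furthest in MDA-MB-231. ACTC1 (ratio 14.1) and ACTG2 (9.80) also moved far, but left of the dotted line. TAGLN and CNN1 moved furthest in HMLER, and 4 genes have no HMLER value.

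**Figure D4:**
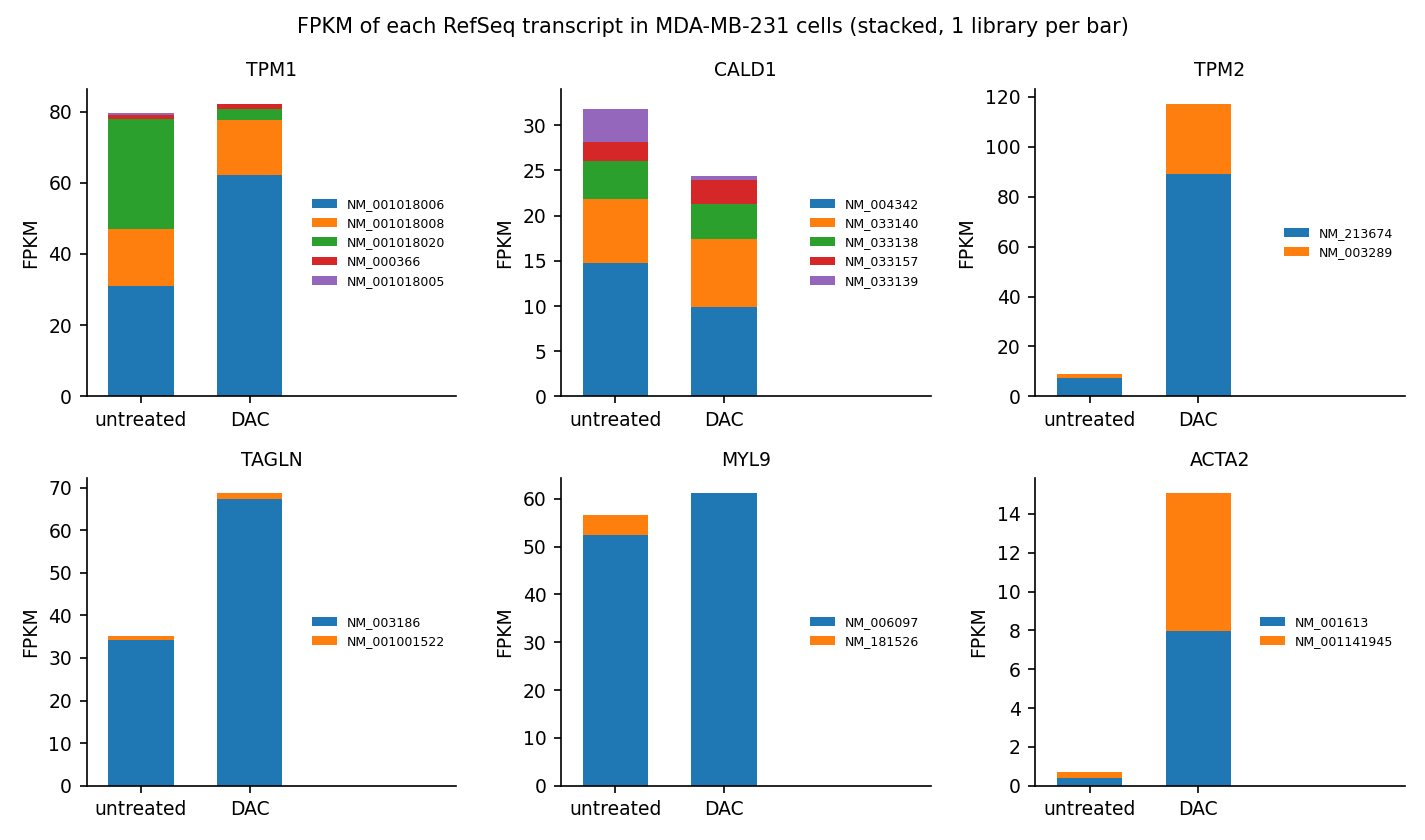
FPKM of each transcript (y axis, linear, stacked) of 6 of the genes in untreated and DAC-treated MDA-MB-231 cells, 1 library per bar. The TPM1 bars reach 79.5 and 82.2 FPKM while NM_001018006 goes from 30.9 to 62.3 FPKM and NM_001018020 from 30.9 to 3.09 FPKM.

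Over the group, 7 of the 10 genes passed the level of 1 FPKM in either MDA-MB-231 library, ACTA2 and CNN1 only through their DAC value. Of the 7, ACTA2, CNN1 and TPM2 were called higher, where 10.8% of the 12525 symbols at this level were. None was called lower, where 4.82% of symbols were. Without the filter, 5 of the 10 were more than 2-fold higher, ACTG2 and ACTC1 being added, where 27.9% of the 18596 symbols above 0 were. By the largest transcript with bounds that did not overlap, only TPM2 was called, where 1.06% of 12396 symbols were. HMLER listed 6 of the 7, all but TPM2, where 10.9% of the 12525 symbols were. ACTA2 and CNN1 were higher in both lines, where 3.66% of symbols were. The values of these comparisons chose the group, so nothing is read from the counts. Just inside the 2-fold threshold of MDA-MB-231 stood no member under TPM2 (13.1), and just outside it TAGLN (1.96).

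The median log2 change with 1 FPKM added was 0.95 over the 7 genes at 1 FPKM or more and 0.25 over all 10. Over all symbols it was -0.08 with the filter and 0 without it. The range among the 10 was from -0.37 for CALD1 to 3.57 for TPM2.

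**Figure D5:**
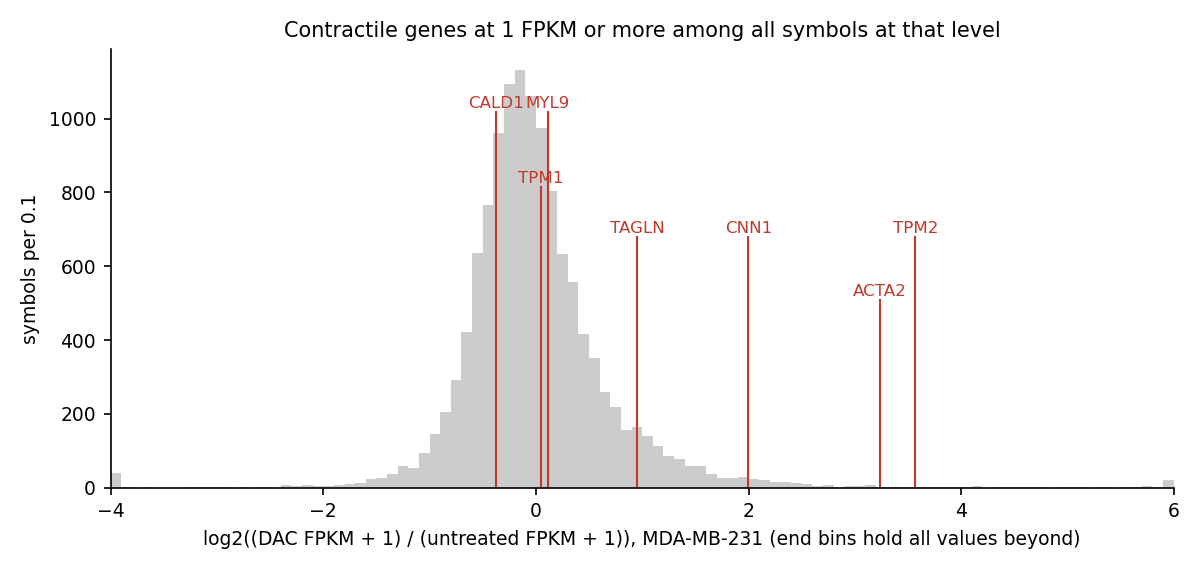
Number of symbols per 0.1 step (y axis) of log2 change after DAC in MDA-MB-231 with 1 FPKM added (x axis), for the 12525 symbols at 1 FPKM or more in at least 1 library, with red lines for the 7 contractile genes at that level (their heights carry no value). CALD1, TPM1 and MYL9 stand within the bulk at -0.37, 0.05 and 0.11, TAGLN at 0.95, CNN1 at 1.998, ACTA2 at 3.24 and TPM2 at 3.57.

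Of the 15 non-muscle paralogs of these genes, 14 reached 1 FPKM. TAGLN3 was called higher and ACTB lower, and MYL6, the essential light chain that follows the actins in abundance, was at 752.4 FPKM untreated and 646.5 FPKM after DAC. The median log2 change was -0.29, or -0.16 after division by the median ratio. Among 27 other genes of the smooth-muscle cytoskeleton and its adhesions, 17 reached 1 FPKM, 3 were higher and 2 lower, with a median of -0.40. Of all symbols at this level, 10.8% were higher and 4.82% lower. CSRP2, a LIM protein of smooth muscle, was at 14.7 FPKM untreated and 52.7 FPKM after DAC in MDA-MB-231 and at 10.6 and 24.1 FPKM in HMLER. ITGA1, a collagen receptor subunit, was at 2.24 and 4.79 FPKM, and the chaperone CRYAB was listed at 0 untreated and at 1.26 FPKM after DAC, and at 4.98 and 25.2 FPKM in HMLER. TGFB1I1, a focal adhesion protein, was lower, at 27.8 and 10.6 FPKM, as was LPP at 5.50 and 2.34 FPKM.

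The abundant actin cross-linkers ACTN4 (447.9 and 261.7 FPKM), ACTN1 (291.9 and 211.2 FPKM) and CSRP1 (255.3 and 165.7 FPKM) did not pass the threshold. HMLER listed 5 genes of this list, CSRP2, CRYAB, DES, FHL2 and FLNC. DES, the intermediate filament of muscle, was at 0.578 and 3.74 FPKM in HMLER and listed at 0 and at 0.543 FPKM in MDA-MB-231. FLNC, a muscle filamin, was at 0.942 and 42.1 FPKM in HMLER and at 71.9 and 63.6 FPKM in MDA-MB-231. FHL2, a LIM protein, was at 62.3 and 173.5 FPKM in HMLER and at 64.3 and 101.4 FPKM in MDA-MB-231.

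Of 25 genes that control phosphorylation of the light chain, 22 reached 1 FPKM, 3 were higher and none lower, with a median of -0.20. Of all symbols at this level, 10.8% were higher and 4.82% lower. The highest were CALM2 (505.5 and 479.9 FPKM), CALM3 (408.0 and 294.4 FPKM) and RHOA (402.2 and 296.9 FPKM). PPP1R14A, the CPI-17 inhibitor of myosin phosphatase in smooth muscle, was listed at 0 untreated and at 1.90 FPKM after DAC. PPP1R14C, of the same family, was at 2.30 and 5.20 FPKM, and RND1 at 0.177 and 1.73 FPKM. PPP1R14A and RND1 reached 1 FPKM only through their DAC value. HMLER listed RND1 (0.870 and 3.94 FPKM), RND3 (9.26 and 30.0 FPKM), PPP1R12A (2.31 and 6.73 FPKM) and MYLK (4.94 and 14.2 FPKM). MYLK, the kinase of the light chain, was at 15.2 and 14.2 FPKM in MDA-MB-231.

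In a list of SRF, its cofactors and other transcription regulators, TEAD and MEF2 factors among them, no gene was called in MDA-MB-231 and none is listed in HMLER. Of 23 such genes, 15 reached 1 FPKM, with a median log2 change of -0.00 that becomes 0.13 after division by the median ratio. SRF itself was at 42.5 FPKM untreated and 43.9 FPKM after DAC, MKL1 at 5.74 and 4.55 FPKM, MKL2 at 3.98 FPKM in both, and MYOCD was listed at 0 in both. The most abundant were ELK3 (67.9 and 63.7 FPKM), TEAD4 (64.9 and 47.3 FPKM) and TEAD1 (44.2 and 46.6 FPKM).

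Of 28 other known SRF target genes, 27 reached 1 FPKM, 6 were higher and 2, ACTB and TGFB1I1, lower, with a median of -0.40. Over all symbols at this level the shares were 10.8% higher and 4.82% lower. The list shares ACTB, ACTG1, MYH9 and TPM4 with the non-muscle paralogs, and TGFB1I1, VCL, FLNA and FHL2 with the smooth-muscle list. Both lower calls are thus repeats of those above, and the medians of these lists are not separate observations. The 6 higher genes were mostly immediate early genes. Not all such genes of the list were called. IER2 was at 86.3 FPKM untreated and 63.1 FPKM after DAC, and EGR3, at 0.0127 and 0.660 FPKM, did not reach 1 FPKM. EGR1 was at 17.9 FPKM untreated and 113.3 FPKM after DAC, FOS at 2.64 and 14.1 FPKM, JUNB at 8.95 and 35.3 FPKM, EGR2 at 0.105 and 2.001 FPKM and FOSB at 0.335 and 2.49 FPKM. ANKRD1, a muscle ankyrin-repeat protein, was at 188.3 and 448.5 FPKM in MDA-MB-231 and at 0.597 and 88.9 FPKM in HMLER. The 3 most abundant, ACTB, ACTG1 and PFN1 (1555 and 1130 FPKM), were lower by value. HMLER listed 7 of the 28, among them CTGF at 25.8 and 225.2 FPKM, THBS1 at 73.5 and 343.8 FPKM and CYR61 at 46.5 and 170.3 FPKM.

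Markers of the lines and of other cells were read in the same libraries. Of the 6 mesenchymal markers of MDA-MB-231, VIM was called lower at 3066 FPKM untreated and 1134 FPKM after DAC, as was MMP14 at 87.7 and 42.0 FPKM, while SPARC was higher at 2.09 and 11.3 FPKM. HMLER listed CD44 (1.23 and 8.26 FPKM) and PLAU (41.1 and 97.4 FPKM), which in MDA-MB-231 were at 212.3 and 138.7 FPKM and at 83.6 and 51.2 FPKM. Of the 8 luminal markers, KRT19 (0.518 and 13.5 FPKM) and GATA3 (0.795 and 1.71 FPKM) were called higher in MDA-MB-231, where ERBB2 was at 11.8 and 12.7 FPKM, EPCAM at 7.90 and 9.78 FPKM and FOXA1 at 1.10 and 1.83 FPKM. In HMLER 3 of the 8 were listed, KRT19 at 0.190 and 32.5 FPKM, EPCAM at 0.4495 and 2.17 FPKM and FOXA1 at 0.534 and 1.13 FPKM. Of the 5 basal markers used for HMLER, ITGA6 was called lower in MDA-MB-231 at 54.0 and 22.9 FPKM, and EGFR was at 34.7 and 23.4 FPKM. Of 40 genes of skeletal and heart muscle, 7 reached 1 FPKM, 4 were higher and none lower, where 10.8% of all symbols were higher. The median log2 change of these 7 was 1.27, beside 0.95 for the contractile genes at that level. Without the filter it was 0.06 over the 40 genes and 0.25 over the 10 contractile genes. The 4 were MYL2, TNNI3, TNNC1 and CKM, under 1 FPKM untreated and at 1.41 to 3.82 FPKM after DAC. They passed the filter only through their DAC value. MYOD1 and MYF5, which define skeletal muscle, were listed at 0 in both libraries, and MYOG was at 0.0178 FPKM after DAC. TNNT1 was at 81.1 and 134.7 FPKM and NKX2-5 at 9.84 and 12.9 FPKM. In HMLER CKM was at 0.0588 and 8.19 FPKM, NKX2-5 at 0.161 and 5.24 FPKM, TNNC1 at 0.432 and 4.02 FPKM, TNNC2 at 0.441 and 1.21 FPKM and TNNT2 was listed at 0 and at 2.21 FPKM.

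Of 8 fibroblast markers, 2 reached 1 FPKM, each only through its DAC value. Both were called higher, where 10.8% of all symbols at this level were. The median log2 change was 2.09 over these 2 and 0.28 over all 8. The 2 were COL1A1 at 0.853 and 15.6 FPKM and PDGFRB at 0.217 and 1.44 FPKM. PDGFRA was at 0.00737 and 0.886 FPKM, COL1A2 at 0 and 0.177 FPKM and COL3A1 at 0.0843 and 0.353 FPKM. The list summed to 1.197 FPKM untreated and 18.5 FPKM after DAC. DCN (0.0234 and 0 FPKM), LUM (0.0123 and 0.0370 FPKM) and FAP (0 and 0.00916 FPKM) were at or near 0 in both libraries. Of 6 myoepithelial markers beside the members, MYLK and OXTR (0.881 and 1.33 FPKM) reached 1 FPKM in MDA-MB-231, where KRT5, KRT14, KRT17 and TP63 were at 0.293 FPKM or less. In HMLER 5 of the 6 were listed, KRT17 at 6.33 and 117.8 FPKM and OXTR at 0.826 and 3.45 FPKM, beside KRT5, KRT14 and MYLK. The part of a changed mix of HMLER cells in the higher ACTA2, CNN1 and TAGLN was not tested.

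The smooth-muscle markers themselves were incomplete in MDA-MB-231. CNN1 was called higher (0.187 to 3.74 FPKM), and DES went from 0 to 0.543 FPKM. MYOCD was at 0, LMOD1 went from 0.0125 to 0.132 FPKM and SYNPO2 from 0.00241 to 0.0458 FPKM. MYH11 and ACTG2 stayed under 0.231 FPKM, and SMTN, at 57.0 and 30.9 FPKM, was lower by value. Of these markers HMLER listed only CNN1 (0.0869 and 1.21 FPKM) and DES (0.578 and 3.74 FPKM). The name of the group stands for the genes, not for smooth-muscle cells in these cultures.

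The genes nearest to the members in both lines were looked up by the pair of log2 changes with 1 FPKM added. The 6 members listed in HMLER had a median pair of 0.53 in MDA-MB-231 and 1.25 in HMLER. Of 1356 other symbols, GNGT2, UPP1, EMILIN2, HPS5 and MOSPD1 lay closest, at distances of 0.0278 to 0.0563. UPP1, uridine phosphorylase, was at 26.3 and 37.9 FPKM in MDA-MB-231 and at 18.5 and 44.3 FPKM in HMLER. This likeness covers 2 cell lines, and the members were themselves spread from -0.37 to 3.24 in MDA-MB-231.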

How the data were processed

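Polyadenylated RNA of 6 libraries was sequenced with a TruSeq kit. The authors aligned reads to hg19 with TopHat2 and deposited FPKM values per RefSeq transcript from Cuffdiff on the Galaxy server. Versions are not given in the sources used here. A label of the untreated MDA-MB-231 library gives another line number, and its title was used. The tables also hold fold changes, test p-values and adjusted values of the authors' comparisons, which were not used.

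FPKM were summed over the transcripts of a symbol. Ratios were computed without a pseudocount and log2 changes with 1 FPKM. Reads were inferred with the effective length taken as length minus 240 bases, in transcripts over 2000 bases, of which 599 untreated and 598 DAC values were 100% within 0.1 of a whole read. Ratio intervals are exact binomial at 95%. Gene positions are from GENCODE lifted to GRCh37 (hg19). The sequences are from RefSeq on GRCh38.p14.

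The members and lists were chosen with earlier results of these data known. By rule, all 10 members are named with every transcript, and of each list the 3 most abundant and up to 8 called or HMLER-listed genes. Nearest genes were the 5 at the smallest Euclidean distance. The calling rule was run on untreated values of 1 FPKM or more, with 200 genes changed well past the threshold and little noise added. This run shows only that the rule returns such changes, and says nothing on the error of the calls. Alternatives were other filters, pseudocounts, transcript choices, bounds, status and division by the median ratio. The work was done with pandas 2.3.3, numpy 2.4.6, scipy 1.17.1 and matplotlib 3.10.9 in Python 3.11.15.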

Additional observations from a re-analysis of the deposited data

Results flagged for a closer look

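For 10 values that reached 1 FPKM in either library of MDA-MB-231, the ratio in that line was under 1 while the HMLER value was more than 2-fold higher after DAC. The HMLER side was fixed in advance, since the authors listed only transcripts above 2-fold, so only the MDA-MB-231 ratio picked these values. With 1 library per condition in MDA-MB-231 and merged values in HMLER, these differences between the lines were not tested. Among the members they were CALD1 summed over transcripts, with a ratio of 0.765 in MDA-MB-231, its transcript NM_004342 (0.671) and the MYL9 transcript NM_181526, whose ratio was 0 since it was listed at 0 after DAC. In the other lists they were FLNC (0.885), MYLK (0.936), PPP1R12A (0.840), CYR61 (0.743), THBS1 (0.870), CD44 (0.653) and PLAU (0.612). The median ratio of MDA-MB-231 symbols was 0.912, so MYLK lay above that median and the others below it.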

How the results depend on the processing

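The 3 members called higher in MDA-MB-231 became 5 with no filter on low values, 1 (TPM2) with 1 FPKM required in both libraries, and 1 (TPM2) with bounds that do not overlap. None was called lower, but 3 had at least 1 transcript past the threshold. The 2 members higher in both lines became 1 with 5 FPKM required in at least 1 library, 0 with 1 FPKM in both, and 0 with bounds that do not overlap. The median log2 change of 0.95 became 0.25 with no filter. These filters test fewer or more genes by construction. Division by the median ratio called 4 members, TAGLN being added, and moved all symbols from 1350 higher and 604 lower to 1519 and 446. Of the other summary values, 31 stayed within 1.5 times of the reported ones or moved little, as did 36 values of single members and promoters, while 8 moved further. None of these changed direction, but division by the median ratio turned the median log2 change of all symbols from -0.08 to 0.05. That of the list of SRF and other regulators went from -0.00 to 0.13. By the largest transcript TPM1 had a ratio of 2.02 in place of 1.03. No paired analysis was possible because each line has 1 value per condition in these tables, merged in HMLER, and for the same reason no replicate could be left out. ACTG2, ACTC1 and MYH11 rest on 1 to 28 reads, which limits what their ratios show.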
